A study of Mus musculus with 56 samples.

Results

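Gene expression 8 h into the daily fast was compared between the dark and the light in the anterior hypothalamus of mice on opposite feeding schedules. The comparison takes 8 of the 56 mice of the study, chosen by feeding regimen and sampling time alone. The 4 mice labelled DRF ZT20 had food from lights on to lights off (daytime-restricted feeding) and were killed at zeitgeber time 20, in the dark. The 4 mice labelled NRF ZT8 had food from lights off to lights on (nighttime-restricted feeding) and were killed at ZT8, in the light. ZT0 is lights on and ZT12 is lights off in a cycle of 12 h light and 12 h dark, so the last access to food was 8 h earlier in both groups. All were female C57BL/6J mice, 9 weeks old, after 7 days on their regimen, and each library came from 1 mouse. Another 8 mice that share no library with these, 4 labelled NRF ZT20 and 4 labelled DRF ZT8, were 8 h into their feeding window at the same clock times. They give the step from light to dark with food present, the fed step, against which the fasted step could be set.

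The difference DRF ZT20 minus NRF ZT8 holds 3 things at once. Clock time differs by 12 h, light differs, and the regimen differs, and in these 8 mice they cannot be told apart. In the fed step the regimens are crossed, so the dark group there is NRF. The fasted step minus the fed step therefore equals DRF minus NRF, summed over ZT8 and ZT20. A step that changes with food and a difference between regimens cannot be told apart by it.

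The anterior hypothalamus holds the suprachiasmatic nucleus, the central clock that follows light, together with the preoptic area, which regulates body temperature, and the paraventricular nucleus, which drives the release of pituitary hormones. In nearly every cell the clock is a feedback loop. CLOCK and ARNTL (also called BMAL1) bind E-boxes and activate Per, Cry and Nr1d genes, whose products repress that activation. Fasting lowers insulin and raises glucocorticoids in the blood, and both act on transcription in brain cells through FOXO factors and the glucocorticoid receptor. Mice are active and warmer in the dark, and body temperature acts on heat-shock and cold-inducible transcripts.

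Expression is given in CPM, TMM-normalized reads scaled by library size, and differences are in log2(CPM + 1), which understates the change of low genes. The 8 libraries held 30156612 to 31490822 normalized reads. Correlations across genes were 0.991 to 0.998 within DRF ZT20 and 0.996 to 0.998 within NRF ZT8. A gene was called when limma, fitted over all 56 mice, gave a Benjamini-Hochberg adjusted p under 0.05 over the 16235 genes tested. The p-values rest on the spread between mice within groups, pooled over all groups of the 56 mice and not taken from these 8 alone. Of 101 marker transcripts for brain regions and cell types, 90 were above 1 CPM in all 8 mice and none was at 0 in all 8, and all 10 markers of the anterior hypothalamus were above 1 CPM in each mouse.

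Replicate 2 of DRF ZT20 stood apart. Summed over the 10 anterior hypothalamus markers, the DRF ZT20 mice had 727, 410, 837 and 867 CPM, and the NRF ZT8 mice 853, 731, 992 and 861 CPM. Replicate 2 of DRF ZT20 was the lowest of the 8, and the other mice of both groups overlapped. For 6 markers of the arcuate and lateral hypothalamus, its sum was 104 CPM against 593 to 995 CPM in the other 3 DRF ZT20 mice and 481 to 983 CPM in NRF ZT8. Its sum over 5 thalamus markers was the highest of the 8 mice, 323 CPM against 125 to 197 CPM in the other 7. For 6 striatum markers it had 385 CPM and replicate 2 of NRF ZT8 had 394 CPM, and the other 6 mice had 154 to 222 CPM. In tissue pieces such as these, fewer cells of a type and less RNA per cell cannot be told apart.

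**Figure D1:**
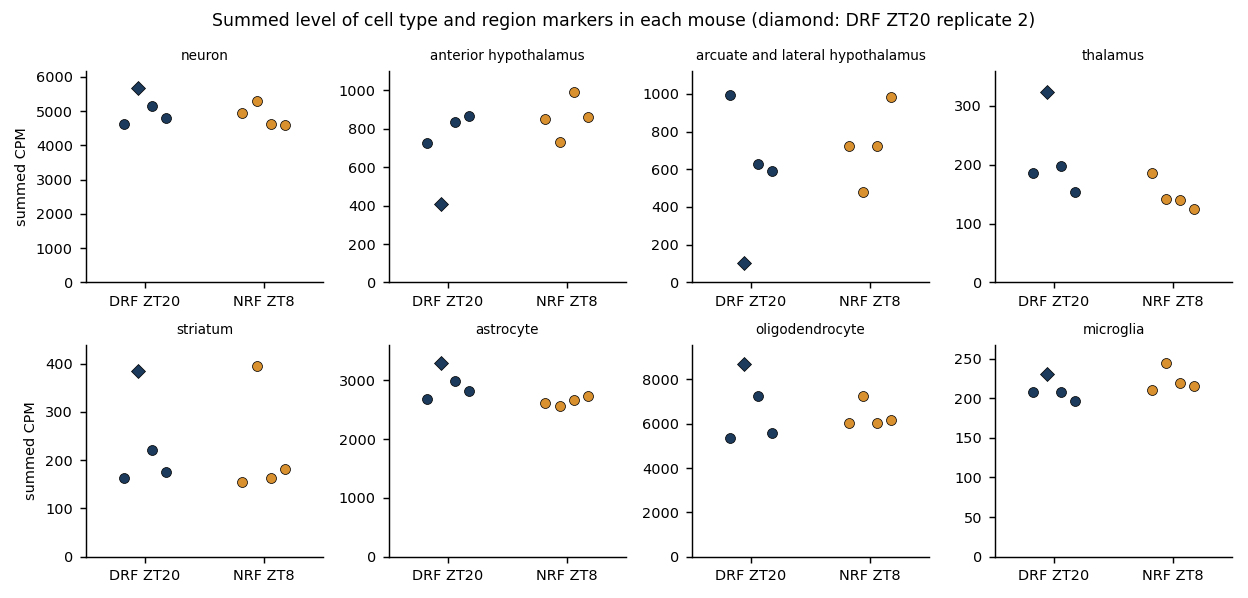
Summed CPM of the marker transcripts of 8 cell types and regions in each of the 8 mice, with DRF ZT20 in dark blue and NRF ZT8 in orange, each axis starting at 0. Replicate 2 of DRF ZT20, the diamond, had 104 CPM of arcuate and lateral hypothalamus markers and 323 CPM of thalamus markers, outside the range of the other 7 mice in both.

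In the fast, 2102 genes (12.9% of those tested) differed between the dark and the light, 1018 higher (6.27%) and 1084 lower (6.68%) in DRF ZT20. Most differences were small. The median was 0.287 among the genes called higher and -0.246 among those called lower, and 91 and 29 genes respectively differed by more than 0.5. Values of the 4 and 4 mice did not overlap in 3160 genes (19.5%), of which 1672 were also called. With replicate 2 of DRF ZT20 left out, 591 genes were called, 349 higher and 242 lower. The count was 1185 without replicate 3 of DRF ZT20, 1373 without replicate 2 of NRF ZT8, 1055 without replicate 4 of NRF ZT8, and 1516 to 2882 without any other single mouse. Among the 2102 genes, replicate 2 was the DRF ZT20 mouse farthest from NRF ZT8 in 1483 (70.6%). List counts given below without that mouse come from the fit that called 591 of all 16235 genes tested. A fit on the 8 mice alone called 1166 genes, 708 higher and 458 lower. The typical SD between mice, as the median over genes, was 0.106 in DRF ZT20 and 0.0794 in NRF ZT8.

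**Figure D2:**
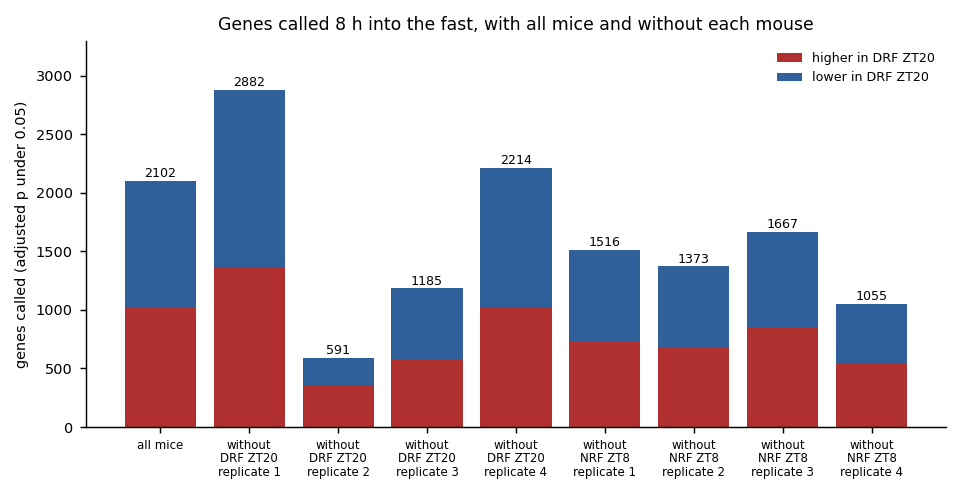
Number of genes called between DRF ZT20 and NRF ZT8 with all mice and with each of the 8 mice left out, split into genes higher (red) and lower (blue) in DRF ZT20. The count was 2102 with all mice, 591 without replicate 2 of DRF ZT20 and 2882 without replicate 1 of DRF ZT20.

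Among clock genes, Dbp, a PAR bZIP output factor, and Nr1d1, the repressor REV-ERBα, were lower in every mouse in the dark than in every mouse in the light. The related output factors Tef and Hlf, at 0.09 and 0.06, were not called (adjusted p = 0.0844 and 0.776). Of the 24 members of the clock feedback loop, 3 were called higher, among them Clock and Nfil3, and 4 lower (Dbp, Nr1d1, Ciart and Bhlhe41), with a median of 0.0263 against -0.00111 over all genes tested. The share called was 29.2%, against 12.9% of all genes tested. With replicate 2 of DRF ZT20 left out, 1 was called higher and 3 lower, where 591 of all 16235 genes tested were called.

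Dbp, at chr7:45705100-45710203 on GRCm38.p6, had 47.5, 38.7, 41.7 and 43.6 CPM in DRF ZT20 and 86.4, 96.6, 93.6 and 91.7 CPM in NRF ZT8. Every fasted mouse in the dark lay below every fasted mouse in the light, a difference of -1.09 ± 0.09 (SE, limma, adjusted p = 1.31e-11). The fed step gave -0.94 (adjusted p = 1.09e-09). Nr1d1 had 83.6, 70.2, 78.6 and 79.2 CPM in DRF ZT20 and 129, 141, 134 and 144 CPM in NRF ZT8. The groups did not overlap, with a difference of -0.81 ± 0.08 (adjusted p = 8.32e-10), and -0.70 in the fed step. Ciart, the repressor CHRONO, had 12.4, 11.3, 13.7 and 10.9 CPM against 15.4, 15.8, 16.1 and 16.2 CPM. Again all 4 mice in the dark were the lower ones, by -0.37 ± 0.09 (adjusted p = 0.00712). Nfil3, a bZIP repressor that competes with DBP for D-boxes, went the other way, with 10.3, 9.38, 9.68 and 11.1 CPM in DRF ZT20 and 8.22, 7.59, 8.89 and 8.92 CPM in NRF ZT8. Its groups did not overlap (0.24 ± 0.07, adjusted p = 0.025), and in the fed step the difference was 0.51.

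The Per and Cry repressors and Arntl did not pass the test in the fast. Per2 had 35.2, 36.5, 39.2 and 38.6 CPM in DRF ZT20 and 36.2, 35.5, 39.7 and 37.4 CPM in NRF ZT8, so the groups overlapped almost fully (0.01 ± 0.07, adjusted p = 0.967). The differences of Per1, Per3, Cry1 and Cry2 were -0.01, -0.07, 0.05 and 0.01. Arntl had 31.6, 33.7, 32.1 and 33 CPM against 30.6, 27.6, 31.4 and 32.3 CPM, a difference of 0.10 ± 0.05 (adjusted p = 0.244). With food present, Arntl was called, at 37.4, 38.6, 35.8 and 37.1 CPM in NRF ZT20 and 26.7, 28.3, 30.5 and 27.9 CPM in DRF ZT8 (0.38, adjusted p = 1.3e-05), and Per3, Cry1 and Cry2 were called there too, at -0.23, 0.25 and -0.19. For none of the 24 clock genes did the fasted step differ from the fed step at an adjusted p under 0.05, so the steps of Arntl, Per3, Cry1 and Cry2 are not shown to differ. Clock, the activator itself, had 85.3, 119, 102 and 99.4 CPM against 82.5, 82.1, 84.6 and 77.3 CPM (0.30 ± 0.10, adjusted p = 0.0481). All 4 mice in the dark were higher. Without replicate 2 of DRF ZT20 the difference was 0.22 (adjusted p = 0.257).

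The promoters of Ciart and Nfil3 are shown because their genes were the clock members called in both steps whose start region holds a clock motif. Sequences are RefSeq promoter windows of 300 bases on GRCm38.p6 spanning the start site, and 19 of the 24 clock genes had a window. Capitals mark the motif, the E-box CACGTG or the ROR and REV-ERB element ANTAGGTCA, searched on both strands. The Ciart window (chr3:95882179-95882478, minus strand) holds 3 E-boxes, at 116, 58 and 44 bases before the start site. The Nfil3 window (chr13:52980990-52981289, minus strand) holds 1 ROR and REV-ERB element, read on the opposite strand, 12 bases before the start site.
Ciart: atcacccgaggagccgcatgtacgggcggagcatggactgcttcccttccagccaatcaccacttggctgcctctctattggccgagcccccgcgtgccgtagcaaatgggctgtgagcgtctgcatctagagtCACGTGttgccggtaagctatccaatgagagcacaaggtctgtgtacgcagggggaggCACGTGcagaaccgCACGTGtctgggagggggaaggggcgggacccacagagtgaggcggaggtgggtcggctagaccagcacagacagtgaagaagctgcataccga
Nfil3: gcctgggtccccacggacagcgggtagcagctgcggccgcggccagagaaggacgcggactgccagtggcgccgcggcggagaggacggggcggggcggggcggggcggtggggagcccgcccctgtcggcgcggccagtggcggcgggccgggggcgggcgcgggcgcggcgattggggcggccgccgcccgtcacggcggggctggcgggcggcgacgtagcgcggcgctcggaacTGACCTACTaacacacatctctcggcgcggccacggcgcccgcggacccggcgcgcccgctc
An E-box is in 7.15% of all 32851 windows and in 6 of the 28 windows of clock genes (21.4%). The ROR and REV-ERB element is in 0.661% of all windows and in 2 of the 28. The windows of Dbp and Nr1d1 hold neither sequence, which says only that these letters are not in these 300 bases.

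Suprachiasmatic signalling genes were mixed, with 2 of 18 called higher and 3 lower (27.8% called, against 12.9% of all genes tested, median -0.0704). Prokr2, the receptor of the output peptide prokineticin 2, had 12, 16.9, 11.4 and 13.6 CPM in DRF ZT20 and 8.64, 6.97, 8.99 and 10.3 CPM in NRF ZT8. The mice in the dark were all higher (0.57 ± 0.16, adjusted p = 0.0151), as in the fed step (0.73). Its ligand Prok2 had 1.41, 1.56, 2.62 and 2.72 CPM against 3.3, 4.2, 3.37 and 2.27 CPM. The ligand was lower in the dark (-0.48 ± 0.16, adjusted p = 0.0406) with 1 mouse of NRF ZT8 inside the range of DRF ZT20. Rasl11b, a small GTPase of the RAS family, was lower in every mouse in the dark (-0.56, adjusted p = 8.04e-05), as was the peptide Nms (-0.45, adjusted p = 0.0195). The peptide Vip differed by -0.54 and was not called (adjusted p = 0.067). Without replicate 2 of DRF ZT20, where 591 of all 16235 genes tested were called, 1 member was higher and 1 lower. Prokr2 (adjusted p = 0.111), Prok2 (0.188) and Nms (0.0837) were no longer called without replicate 2. In that library the summed markers of the anterior hypothalamus, which include Vip, were the lowest of the 8 mice, and their part in these differences was not tested.

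Heat-shock genes were called in 60.9% of the list, against 12.9% of all genes tested, and each called member was higher in the dark. Of 23 cytosolic heat-shock genes, 14 were called higher and 0 lower (limma, with 18 higher and 0 lower at an unadjusted p under 0.05, and 11 higher and 0 lower with limma-voom). The median difference was 0.217. In 19 of the 23 the 4 and 4 mice did not overlap, against 19.5% of all genes tested. In the fed step 16 were higher and 0 lower, against 2.25% of all genes tested higher and 1.62% lower. The fed median was 0.363, and 12 were called in both steps. Between the dark groups themselves, 6 members were lower in DRF ZT20 than in NRF ZT20 and 0 higher, with a median of -0.231. Of all genes tested, 0.597% were called lower and 0.542% higher there. With replicate 2 of DRF ZT20 left out, 7 were called higher and the median was 0.201. That fit called 349 of all 16235 genes tested higher.

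Hspa1b, an inducible cytosolic HSP70, had 6.87, 11.9, 7.53 and 6.11 CPM in DRF ZT20 and 3.23, 3.02, 3.64 and 2.73 CPM in NRF ZT8. The lowest mouse in the dark was above the highest in the light (1.10 ± 0.23, adjusted p = 0.00158), and the ratio of the group means was 2.57. With food present, the difference was 1.15 and the ratio of the group means was 2.46. Hspa1a had 16.7, 16.7, 16.9 and 16.3 CPM against 11.3, 10.3, 12.2 and 13 CPM (0.48 ± 0.14, adjusted p = 0.0219), and without replicate 2 of DRF ZT20 its adjusted p was 0.0723. Reads of Hspa1a and Hspa1b, near-identical copies on chromosome 17, may have been split between them, so the share of each is uncertain. Hspb1, the small chaperone HSP27, had 7.94, 12.5, 6.04 and 5.53 CPM against 4.01, 5.21, 3.65 and 4.13 CPM. Its groups did not overlap (0.73 ± 0.19, adjusted p = 0.00859), although replicate 2 carried the highest value, and without that mouse the adjusted p was 0.108. Chordc1, a co-chaperone of HSP90, had 71.4, 102, 81.9 and 77.9 CPM against 59.7, 57.6, 53.2 and 53.6 CPM. All 4 mice in the dark were above all 4 in the light (0.55 ± 0.15, adjusted p = 0.014), with an adjusted p of 0.105 without replicate 2. Hsph1, a nucleotide exchange factor for HSP70, differed by 0.43 (adjusted p = 9.32e-05) and the constitutive Hspa8 by 0.19 (adjusted p = 0.00564).

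The promoters of Hspa1b, Hspb1 and Chordc1 are shown because these genes had the largest called differences of the list among members whose start region holds the core of a heat shock element. Capitals mark GAANNTTC, searched on both strands of the same 300-base RefSeq windows. They lie at chr17:34959189-34959488 on the minus strand for Hspa1b, at chr5:135887669-135887968 on the plus strand for Hspb1 and at chr9:18292017-18292316 on the plus strand for Chordc1.
Hspa1b: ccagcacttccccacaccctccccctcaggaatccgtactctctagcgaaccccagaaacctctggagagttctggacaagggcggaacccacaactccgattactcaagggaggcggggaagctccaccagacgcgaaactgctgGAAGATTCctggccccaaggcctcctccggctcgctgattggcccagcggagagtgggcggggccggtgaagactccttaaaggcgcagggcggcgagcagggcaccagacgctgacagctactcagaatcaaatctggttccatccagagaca
Hspb1: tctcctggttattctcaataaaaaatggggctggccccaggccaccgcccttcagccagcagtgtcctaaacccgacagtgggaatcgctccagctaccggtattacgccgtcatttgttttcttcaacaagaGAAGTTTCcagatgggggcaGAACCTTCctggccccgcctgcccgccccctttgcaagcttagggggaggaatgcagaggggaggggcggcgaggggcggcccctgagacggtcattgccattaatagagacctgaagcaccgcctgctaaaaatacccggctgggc
Chordc1: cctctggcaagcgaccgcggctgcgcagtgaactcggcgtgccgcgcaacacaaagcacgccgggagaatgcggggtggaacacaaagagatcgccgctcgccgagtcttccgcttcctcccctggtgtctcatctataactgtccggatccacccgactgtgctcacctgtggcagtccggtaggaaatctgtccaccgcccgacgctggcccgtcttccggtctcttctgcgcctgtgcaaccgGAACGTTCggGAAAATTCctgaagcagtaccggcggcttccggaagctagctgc
The motif begins 104 bases before the start site in Hspa1b, 117 and 97 before it in Hspb1, and 4 before and 6 after it in Chordc1. It is in 7.86% of all windows and in 11 of the 25 windows (44%) of the 19 heat-shock genes that had one. None of the 19 windows of endoplasmic reticulum chaperones holds it. A match of letters is a description and was not tested for binding.

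Of 22 endoplasmic reticulum chaperones and stress response genes, 10 were called higher and 0 lower (11 and 0 at an unadjusted p under 0.05, 10 and 0 with limma-voom), with a median of 0.148. The share was 45.5%, against 6.27% of all genes tested called higher and 12.9% called either way. In the fed step 13 were higher and 0 lower, against 2.25% of all genes tested higher and 1.62% lower. The fed median was 0.28, and 8 were called in both. Sdf2l1, a co-chaperone of the endoplasmic reticulum, had 11.2, 10.6, 9.78 and 11.1 CPM in DRF ZT20 and 7.25, 7.62, 7.18 and 7.26 CPM in NRF ZT8. The 4 mice of each group lay close together and the groups did not overlap (0.48 ± 0.11, adjusted p = 0.00227). Hspa5, the main HSP70 of that compartment (BiP), had 450, 471, 419 and 429 CPM against 366, 319, 373 and 371 CPM. Every mouse in the dark was higher (0.31 ± 0.08, adjusted p = 0.0087). With replicate 2 of DRF ZT20 left out, 2 members were called, the median was 0.12, and Hspa5 had an adjusted p of 0.056. That fit called 591 of all 16235 genes tested, against 2102 with all mice.

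Cold-inducible RNA-binding proteins went down together in the dark. Cirbp, whose transcript accumulates on mild cooling, had 75.2, 53.8, 66.4 and 68 CPM in DRF ZT20 and 92, 88.9, 94.9 and 92.8 CPM in NRF ZT8. The groups did not overlap (-0.49 ± 0.10, adjusted p = 0.00177), and the fed step gave -0.67 (adjusted p = 5.05e-05). Rbm3, its close relative, had 52.6, 41, 49.8 and 55.6 CPM against 70.4, 67.5, 79 and 66.6 CPM. It was lower in all 4 mice in the dark (-0.51 ± 0.14, adjusted p = 0.0122), with an adjusted p of 0.0939 without replicate 2 of DRF ZT20.

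**Figure D3:**
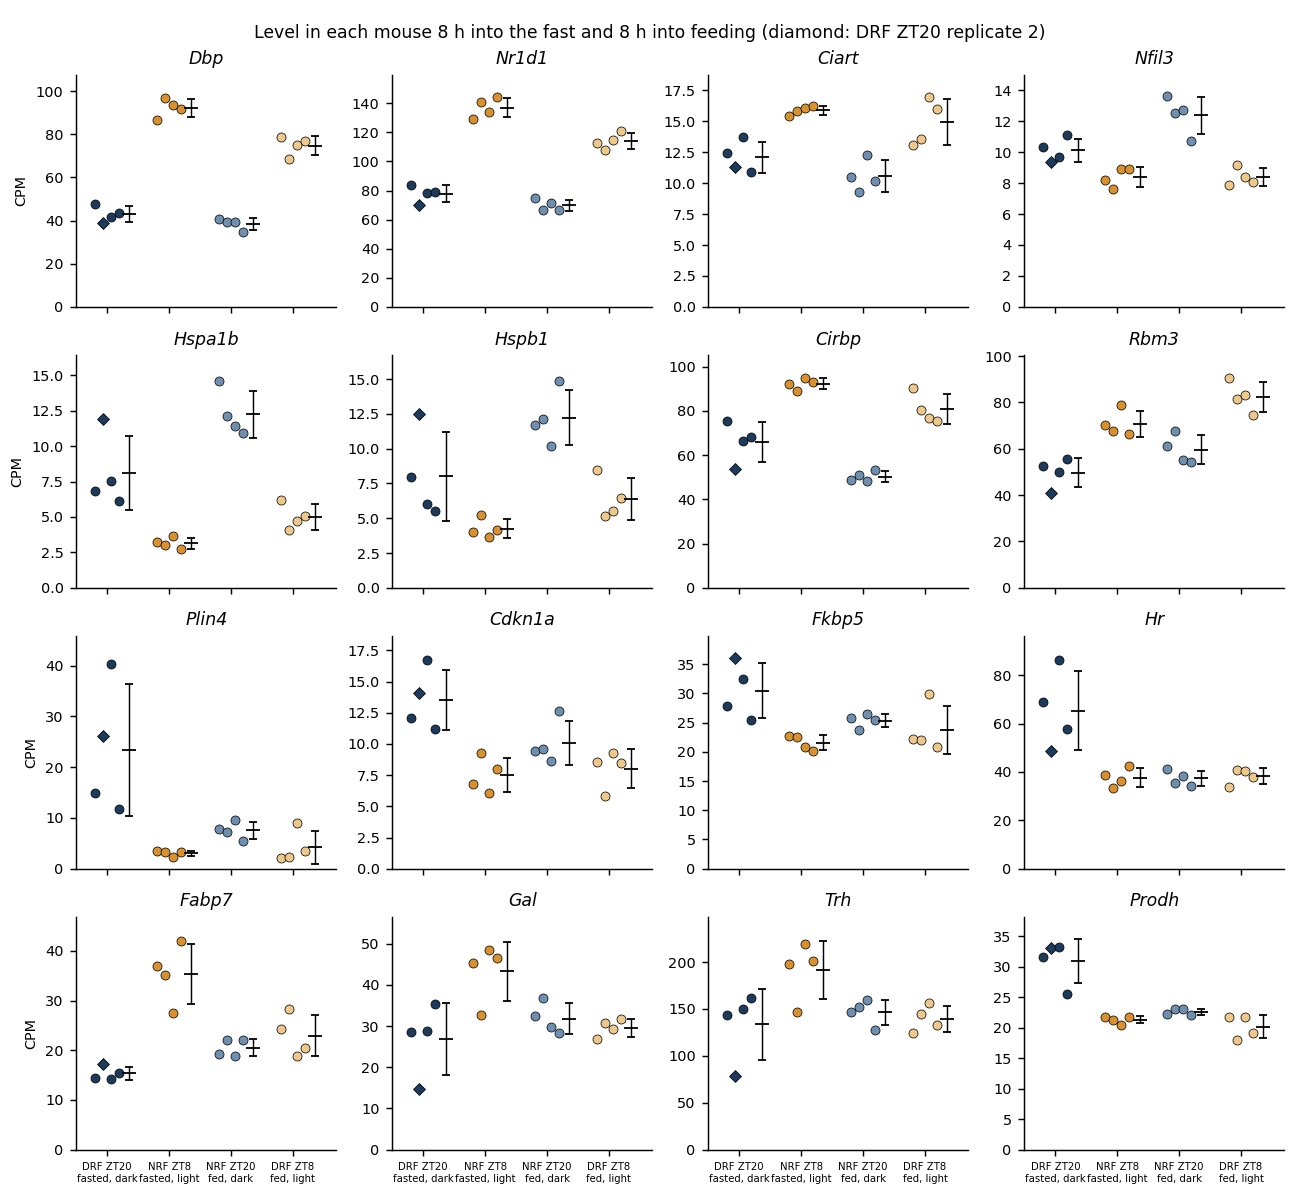
CPM of 16 genes in each mouse of the 4 groups at ZT8 and ZT20, each axis starting at 0, with the mean and SD of the 4 mice beside the points and replicate 2 of DRF ZT20 as a diamond. Dbp and Nr1d1 were lower in both dark groups than in both light groups, while Plin4 reached 11.7 to 40.4 CPM in DRF ZT20 and 2.07 to 9.62 CPM in the other groups.

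Transcripts known as targets of glucocorticoids were the next list, and hormone levels are not part of these data. The largest difference of any gene called was in Plin4, a coat protein of lipid droplets, at chr17:56100587-56109948 on GRCm38.p6. It had 15, 26.2, 40.4 and 11.7 CPM in DRF ZT20 and 3.43, 3.32, 2.35 and 3.23 CPM in NRF ZT8. The lowest mouse in the dark was well above the highest in the light, by 2.43 ± 0.30 (adjusted p = 4.06e-07), with a ratio of means of 7.56. The mice in the dark also varied widely among themselves. With food present, the difference was 0.87 (adjusted p = 0.0834), and the fasted and fed steps of Plin4 were not shown to differ (adjusted p = 0.115). Of 19 glucocorticoid targets tested, 4 were called higher and 0 lower (10 and 0 at an unadjusted p under 0.05, 3 and 0 with limma-voom), with a median of 0.224. The share was 21.1%, against 6.27% of all genes tested called higher and 12.9% called either way. Fkbp5, a co-chaperone that dampens the glucocorticoid receptor, had 27.9, 36, 32.5 and 25.4 CPM against 22.7, 22.5, 20.9 and 20.2 CPM. The groups did not overlap (0.47 ± 0.10, adjusted p = 0.00147). Tsc22d3, which encodes GILZ, had 72.1, 90.9, 83.7 and 75.1 CPM against 58.9, 62.2, 57.7 and 68.4 CPM (0.37 ± 0.09, adjusted p = 0.00623). Sult1a1, a sulfotransferase, differed by 0.87 (adjusted p = 0.000351). The receptor genes Nr3c1 and Nr3c2 differed by 0.09 and 0.08, and Sgk1, a kinase induced by glucocorticoids, by 0.70 without passing the test (adjusted p = 0.0836). Without replicate 2 of DRF ZT20, 3 were called higher, with an adjusted p of 0.0587 for Tsc22d3. That fit called 349 of all 16235 genes tested higher. In the fed step 0 members were called (limma, 4 higher and 4 lower at an unadjusted p under 0.05), with a median of -0.0202. Over all genes tested, 3.87% were called in that step. The steps were not shown to differ for any of the 19 targets tested.

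Among 22 insulin and FOXO fasting-response genes, 9 were called higher and 0 lower (11 and 0 at an unadjusted p under 0.05, 9 and 0 with limma-voom), with a median of 0.155. The share was 40.9%, against 6.27% of all genes tested called higher and 12.9% called either way. Cdkn1a, the cell cycle inhibitor p21, had 12.1, 14.1, 16.7 and 11.2 CPM in DRF ZT20 and 6.79, 9.25, 6.07 and 7.96 CPM in NRF ZT8. All mice in the dark were higher (0.77 ± 0.15, adjusted p = 0.00093). Sesn3, a FOXO target that restrains mTORC1, had 29.6, 50.4, 39.2 and 34.9 CPM against 24.1, 21.6, 26.1 and 20.2 CPM. It too was higher in each mouse in the dark (0.70 ± 0.15, adjusted p = 0.002). Pdk4, the kinase that shuts off pyruvate dehydrogenase, had 7.65, 9.58, 10.7 and 7.67 CPM against 5.66, 6.29, 5.62 and 6.4 CPM, again without overlap (0.49 ± 0.10, adjusted p = 0.00173). Irs2, Igf1r, Klf15, Bcl6 and Sesn1 were called at 0.38, 0.34, 0.28, 0.36 and 0.16. Txnip, a brake on glucose uptake, was called at 0.52 with 1 mouse of each group overlapping, but not without replicate 2 of DRF ZT20 (0.43, adjusted p = 0.15). With food present, 1 of the 22 was called higher and 0 lower (limma, 5 and 3 at an unadjusted p under 0.05), with a median of 0.0161. The fed step called 2.25% of all genes tested higher and 1.62% lower. In the fast, 6 were called higher without replicate 2 of DRF ZT20, where 349 of all 16235 genes tested were. For none of these genes did the fasted step differ from the fed step at an adjusted p under 0.05.

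Thyroid hormone genes were called in 2 of 11 (18.2%, against 12.9% of all genes tested), both higher in the dark, with a median of 0.0767. Without replicate 2 of DRF ZT20, 1 member was called higher and 1 lower, with a median of -0.0623. That fit called 591 of all 16235 genes tested. Hr, a corepressor induced by thyroid hormone, had 69, 48.7, 86.3 and 57.6 CPM in DRF ZT20 and 38.7, 33.3, 36.2 and 42.3 CPM in NRF ZT8. The groups did not overlap (0.76 ± 0.15, adjusted p = 0.000756), and the fed mice, at 34 to 41.3 CPM in the dark and 33.6 to 40.9 CPM in the light, gave -0.04. The fasted and fed steps of Hr were not shown to differ (limma, adjusted p = 0.109). Dio2, the deiodinase that makes active thyroid hormone, had 7.2, 20.4, 8.95 and 6.28 CPM against 4.01, 6.22, 4.73 and 5.57 CPM. Replicate 2 was far above the other mice, and without it Dio2 was not called (0.81 ± 0.22, adjusted p = 0.0109, and 0.47, adjusted p = 0.165, without replicate 2).

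Amino acid degradation was represented by 6 called genes of 28 (21.4%, against 12.9% of all genes tested). Of these, 5 were higher and 1 lower (list median 0.0467), and the same counts stood without replicate 2 of DRF ZT20. That fit called 591 of all 16235 genes tested. Prodh, which starts proline breakdown, had 31.6, 33, 33.3 and 25.6 CPM in DRF ZT20 and 21.7, 21.3, 20.5 and 21.8 CPM in NRF ZT8. All 4 mice in the dark were higher (0.50 ± 0.09, adjusted p = 0.000195). Aass, the first enzyme of lysine breakdown by saccharopine, had 7.11, 9.22, 8.16 and 6.34 CPM against 4.5, 4.75, 4.26 and 3.9 CPM, without overlap (0.69 ± 0.11, adjusted p = 7.68e-05). Pipox, the oxidase of pipecolate on another lysine route, went the other way, with 7.17, 4.46, 4.91 and 5.53 CPM against 8.96, 9.41, 9.88 and 9.15 CPM. Every mouse in the dark was lower (-0.68 ± 0.09, adjusted p = 1.1e-06), and the fed step was also called (-0.44). Sds, the serine dehydratase, had 1.26 to 2.22 CPM against 0.489 to 1.02 CPM and was called at 0.53 (adjusted p = 0.00965). The study singled out Pipox, Prodh, Csad and Sds from these samples, so these members are not independent evidence for the list.

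Ketone and fatty acid use was called in 2 of 24 genes (8.33%), against 12.9% of all genes tested. Angptl4, an inhibitor of lipoprotein lipase, had 6.34, 9.02, 6.9 and 6.18 CPM in DRF ZT20 and 4.82, 4.27, 4.51 and 5.05 CPM in NRF ZT8. The groups did not overlap (0.51 ± 0.12, adjusted p = 0.00547), and the fed step was 0.75. Without replicate 2 of DRF ZT20 its adjusted p was 0.0644. Bdh1, which converts ketone bodies, had 41.5, 39, 40.8 and 39.3 CPM against 48.8, 52.5, 45.2 and 51.4 CPM, lower in every mouse in the dark (-0.29 ± 0.06, adjusted p = 0.000615) and in the fed step (-0.24). The carnitine transferase Cpt1a differed by 0.13 and was not called (adjusted p = 0.0678).

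**Figure D4:**
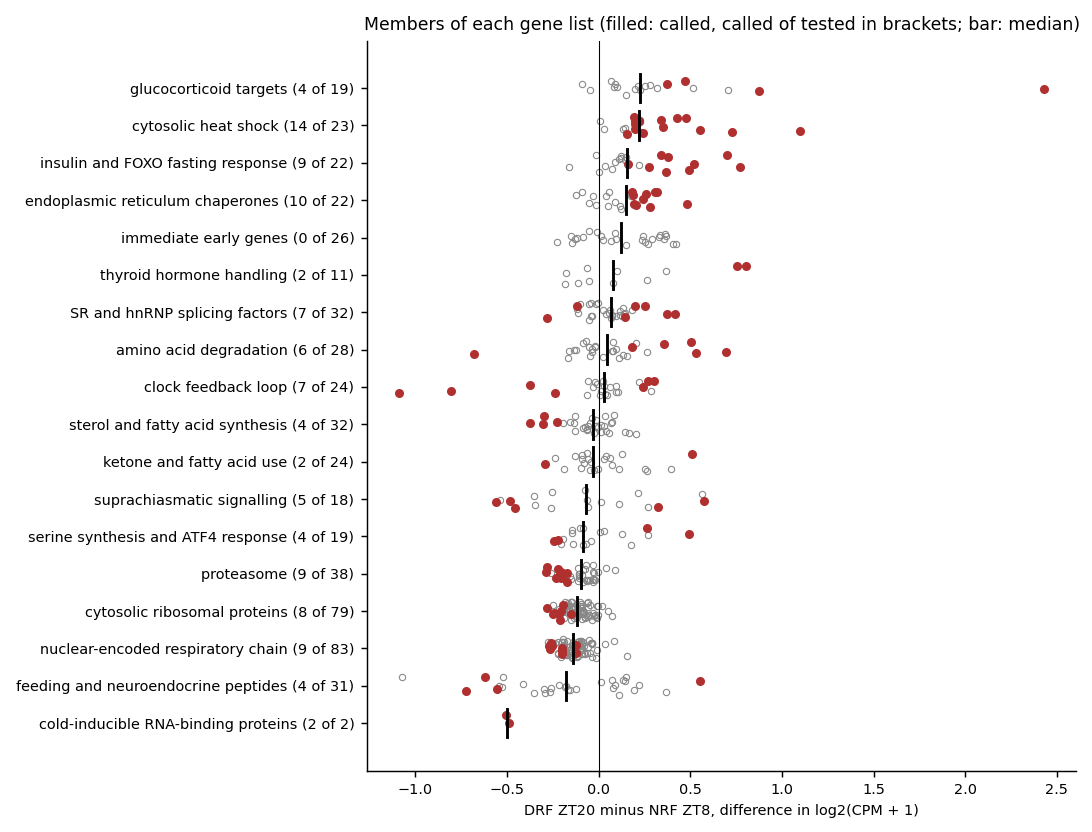
Difference in log2(CPM + 1) between DRF ZT20 and NRF ZT8 for each member of the 18 gene lists, with filled points for called members, a bar at the median, and the numbers called and tested in brackets. Heat-shock, fasting-response and glucocorticoid lists lie mostly above 0, and ribosomal, respiratory chain and proteasome lists mostly below it with small differences.

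Feeding and neuroendocrine peptides were called in 4 of 31 genes, 3 lower and 1 higher, a share of 12.9% that equals the share over all genes tested. The median was -0.176. Gal, the peptide galanin, had 28.6, 14.6, 28.7 and 35.4 CPM in DRF ZT20 and 45.3, 32.8, 48.6 and 46.6 CPM in NRF ZT8. It was lower in the dark (-0.72 ± 0.15, adjusted p = 0.00147), with 1 mouse of NRF ZT8 inside the DRF range, and the call held without replicate 2. Trh, which drives the thyroid axis, had 144, 78, 150 and 162 CPM against 198, 147, 219 and 201 CPM, with overlapping groups (-0.55 ± 0.15, adjusted p = 0.0127). Kiss1 was called lower (-0.62, adjusted p = 0.0305) and the receptor Glp1r higher (0.55, adjusted p = 0.00898). Without replicate 2 of DRF ZT20 neither Trh, Kiss1 nor Glp1r was called (adjusted p = 0.187, 0.22 and 0.135), and the median of the list was -0.0288. That mouse had the lowest sums of anterior hypothalamus and of arcuate and lateral hypothalamus markers, lists that hold Trh and Kiss1, and their part in these differences was not tested. In the fed step 0 of the 31 were called (limma, 2 higher and 1 lower at an unadjusted p under 0.05), against 3.87% of all genes tested. The steps were not shown to differ for any of the 31.

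Immediate early genes of neuronal activity were not called in any of 26 members (limma and limma-voom, 4 higher and 1 lower at an unadjusted p under 0.05), with a median of 0.119. Over all genes tested, limma called 12.9%. Egr3 had 3.92, 21.5, 7.96 and 3.56 CPM in DRF ZT20 and 3.4, 11.7, 4.1 and 3.93 CPM in NRF ZT8. Replicate 2 was the highest mouse in both groups, and the groups overlapped (0.42 ± 0.48, adjusted p = 0.593). Without that mouse of DRF ZT20 the difference was -0.06.

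Large gene families of growth and energy supply leaned below 0 by small amounts. Of 79 cytosolic ribosomal proteins, 0 were called higher and 8 lower (0 and 27 at an unadjusted p under 0.05, 0 and 6 with limma-voom), with a median of -0.117. That is 10.1% of the list, against 12.9% of all genes called and 6.68% called lower. Of 83 nuclear-encoded respiratory chain subunits, 0 were higher and 9 lower (0 and 33 unadjusted, 0 and 8 with limma-voom), with a median of -0.139 and 3 members above 0, which is 10.8% called. Of 38 proteasome subunits, 0 were higher and 9 lower (0 and 17 unadjusted, 0 and 9 with limma-voom), with a median of -0.098 (23.7% called). Psmb3, a subunit of the proteasome core, had 50.8, 47.6, 44.8 and 52.2 CPM in DRF ZT20 and 60.1, 60.8, 56 and 62.7 CPM in NRF ZT8. It was lower in all 4 mice in the dark (-0.29 ± 0.07, adjusted p = 0.00715). Ndufv3, of respiratory complex I, had 58.5, 54, 59.7 and 60.2 CPM against 68.5, 73.4, 66.3 and 73.4 CPM, without overlap (-0.27 ± 0.07, adjusted p = 0.00699). With replicate 2 of DRF ZT20 left out, 0, 2 and 1 members of these lists were called, all lower. That fit called 242 of all 16235 genes tested lower. In each library, deviations from the mean of each gene over the 56 mice were fitted on GC content, length and mean level together. The slope on GC content in that fit was 0.0984, -0.714, -0.295 and -0.251 in the DRF ZT20 libraries and -0.0337, 0.644, 0.492 and 0.353 in the NRF ZT8 libraries, in log2 units per unit of GC fraction. The slopes overlapped in 1 library of each group (exact permutation test, two-sided, p = 0.0571, where 0.0286 is the smallest p possible). With trends in GC content, length and level removed from each library, the medians were -0.0439 for ribosomal proteins and -0.071 for the respiratory chain.

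Splicing factors and serine synthesis genes were called in both directions. Of 32 splicing factors, 5 were higher and 2 lower (21.9%, against 12.9% of all genes tested, median 0.0649). Without replicate 2 of DRF ZT20 the counts were 3 and 0, where 591 of all 16235 genes tested were called. Hnrnpm, an RNA-binding splicing regulator, had 105, 113, 104 and 103 CPM in DRF ZT20 and 78.2, 81.3, 84 and 82.8 CPM in NRF ZT8. Both groups were tight and did not overlap (0.37 ± 0.05, adjusted p = 8.61e-06), and the fed step was called too (0.25). Of 32 sterol and fatty acid synthesis genes, 0 were higher and 4 lower (2 and 6 at an unadjusted p under 0.05, 0 and 4 with limma-voom). This share of 12.5% is close to the 12.9% called over all genes tested. The called genes were the mevalonate and cholesterol enzymes Mvd, Dhcr7, Nsdhl and Mvk at -0.38, -0.30, -0.30 and -0.23, and 1 was called without replicate 2 of DRF ZT20. Of 19 serine synthesis and ATF4 response genes, 2 were higher (Cth and Psat1, at 0.49 and 0.26) and 2 lower (the amino acid transporters Slc7a5 and Slc7a3, at -0.24 and -0.22), a share of 21.1%. Of these, Cth was still called with replicate 2 of DRF ZT20 left out (adjusted p = 0.0197), and Psat1, Slc7a5 and Slc7a3 were not (0.131, 0.0616 and 0.36).

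Several of the genes with the largest differences are glial or vascular and belong to none of the lists. Fabp7, the brain fatty acid binding protein of astrocytes, fell most among all genes called. Its gene lies at chr10:57784923-57788450 on GRCm38.p6, and it had 14.4, 17.2, 14.3 and 15.4 CPM in DRF ZT20 and 36.9, 35.1, 27.4 and 41.9 CPM in NRF ZT8. The groups were far apart (-1.14 ± 0.15, adjusted p = 3.31e-06). The fed mice overlapped, at 18.8 to 22 CPM in the dark and 18.9 to 28.2 CPM in the light (-0.14, adjusted p = 0.688). The fasted and fed steps of Fabp7 were not shown to differ (limma, adjusted p = 0.0615). Mfsd2a, the transporter of lysophospholipids at the blood-brain barrier, had 40.9, 38.7, 51.8 and 37.5 CPM against 23.6, 20.6, 20.8 and 24.8 CPM. It was higher in every mouse in the dark (0.88 ± 0.11, adjusted p = 4.06e-07), as in the fed step (0.52). Fam107a, a stress-responsive actin regulator found in astrocytes, had 382, 605, 481 and 380 CPM against 229, 289, 208 and 229 CPM, without overlap (0.93 ± 0.14, adjusted p = 1.84e-05).

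Oligodendrocyte transcripts went both ways. Opalin, a myelin paranode protein, had 14.4, 16.9, 15.5 and 12.7 CPM in DRF ZT20 and 23.7, 32.8, 24.8 and 24.7 CPM in NRF ZT8. Plasmolipin, Pllp, had 50.7, 58.6, 53.7 and 51.9 CPM against 80.4, 102, 87.5 and 86.2 CPM. Both were lower in all 4 mice in the dark (-0.79 ± 0.15, adjusted p = 0.000805, and -0.72 ± 0.11, adjusted p = 5.87e-05). Anln, an actin-binding protein of myelin, had 30.9, 71.6, 44.3 and 29.4 CPM against 21.5, 25.3, 20.4 and 20.1 CPM, higher in the dark without overlap (0.89 ± 0.18, adjusted p = 0.000963). Of the 8 oligodendrocyte markers, 0 were called (limma, 1 higher and 1 lower at an unadjusted p under 0.05), and their sum was 5370 to 8680 CPM in DRF ZT20 and 6010 to 7250 CPM in NRF ZT8. The sum was highest in replicate 2 of DRF ZT20, which also had the most Anln, and its part in the result was not tested.

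Astrocyte markers were called in 3 of 8 (37.5%, against 12.9% of all genes tested), all higher. The list was mixed, with 5 of the 8 above 0, a median of 0.0993 and a lowest difference of -0.192. At an unadjusted p under 0.05 (limma), 3 were higher and 1 lower. Gjb6, a connexin of astrocyte gap junctions, had 102, 107, 115 and 105 CPM in DRF ZT20 and 80.3, 74.6, 77.6 and 86.1 CPM in NRF ZT8. The groups did not overlap (0.42 ± 0.08, adjusted p = 0.000341), and the fed step was 0.37. Gja1, the other main astrocyte connexin, differed by 0.27 (adjusted p = 0.0019). Slc1a2, the glutamate transporter, was called at 0.25, but not without replicate 2 of DRF ZT20 (adjusted p = 0.34). The 8 markers summed to 2690 to 3300 CPM in DRF ZT20 and 2560 to 2740 CPM in NRF ZT8, overlapping in 1 mouse of NRF ZT8. Their part in the differences of Fabp7, Fam107a and other astrocyte transcripts was not tested.

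The remaining genes with the largest differences, all without overlap between the groups, were higher for Kirrel2 (1.05), Cntnap5c (0.97), Cdh19 (0.92), Stab2 (0.82) and Cdr1 (0.81). They were lower for Angptl2 (-0.73), Kcne1l (-0.66), Slc38a5 (-0.64), Adora2b (-0.58), Nrarp (-0.57) and Lrrc29 (-0.57). With replicate 2 of DRF ZT20 left out, Lrrc29 was not called (adjusted p = 0.0916). Cdr1 overlaps an antisense transcript, and since the strand used in counting is not given in the sources used here, reads of both cannot be told apart.

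The fed step called fewer genes. With food present, 629 genes (3.87%) differed between NRF ZT20 and DRF ZT8, 366 higher (2.25%) and 263 lower (1.62%) in the dark. The count was 353 and 388 without replicates 1 and 2 of NRF ZT20, 361 and 397 without replicates 1 and 4 of DRF ZT8, and 473 to 568 without any other single mouse. Both steps called 241 genes, and 238 of these moved the same way, 136 higher and 102 lower in the dark. These 238 were 11.3% of the fasted calls and 37.8% of the fed calls. The 3 that moved in opposite directions were Tet3, Grip1 and Baalc. Among all 2102 fasted calls, 1676 (79.7%) had the same sign in the fed step, but the size was smaller there, with medians of 0.085 for the genes higher in the fast and -0.077 for the genes lower in it. The genes were chosen on the fasted step, and a choice of this kind favours larger values in the step used for it. The share with the same sign over all genes tested is not given here, so the 79.7% has no background beside it. The test of the difference between the steps is also a test of DRF against NRF over both clock times. It called 2 genes (0.0123%), 1 higher and 1 lower (0.00616% each), with 2184 (13.5%) at an unadjusted p under 0.05.

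**Figure D5:**
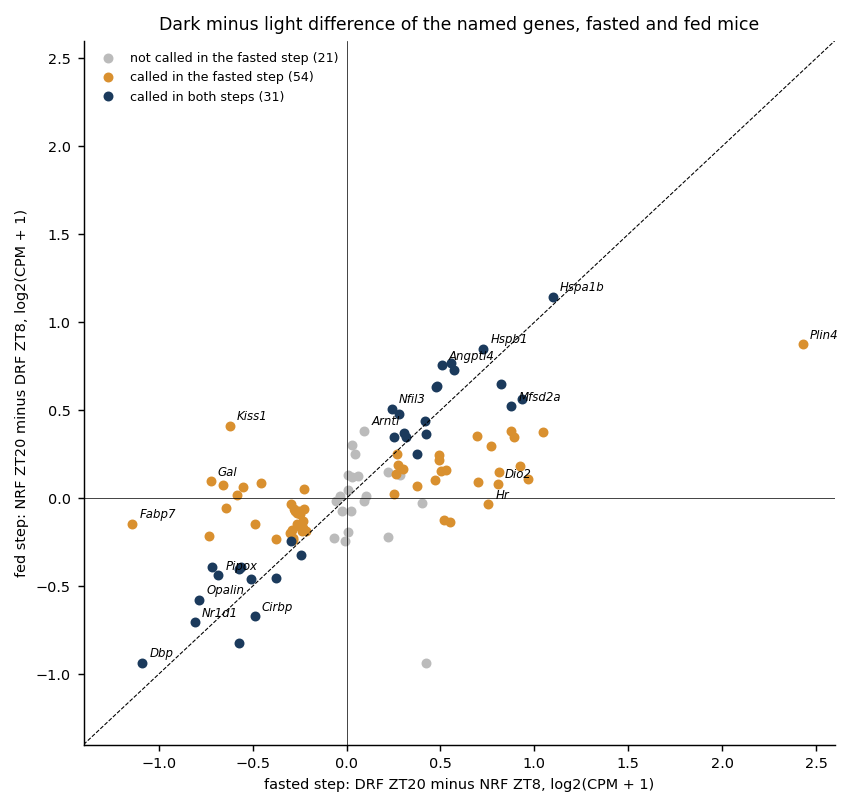
Dark minus light difference in log2(CPM + 1) of the 106 named genes in the fasted step (horizontal) and in the fed step (vertical), from different mice, with a dashed line where both are equal. Dbp, Nr1d1, Cirbp and Hspa1b lie near the line, and Fabp7, Hr, Dio2 and Gal lie near 0 on the fed axis. The fasted and fed steps of Fabp7, Hr, Dio2 and Gal were not shown to differ (limma, adjusted p = 0.0615, 0.109, 0.276 and 0.109).

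One of the 2 genes was Etnppl, the phospholyase of phosphoethanolamine, an astrocyte transcript. It had 101, 108, 117 and 101 CPM in DRF ZT20 and 73.3, 65.4, 71.1 and 69.5 CPM in NRF ZT8, and 82.6, 87.2, 77 and 81.6 CPM in NRF ZT20 and 80.1, 77.2, 99.1 and 82.2 CPM in DRF ZT8. The fasted groups did not overlap and the fed groups did, and the steps differed by 0.64 ± 0.12 (adjusted p = 0.0421). The other was Baalc, a membrane-associated protein of brain, with 180, 164, 158 and 172 CPM in DRF ZT20 and 183, 187, 186 and 187 CPM in NRF ZT8. Its fasted step was -0.15 and its fed step 0.15, a difference of -0.29 ± 0.06 (adjusted p = 0.0461). The number of such genes was 132 without replicate 1 and 31 without replicate 4 of DRF ZT20, 11 without replicate 2 of DRF ZT8, 5 without replicate 3 of NRF ZT8, and 0 to 3 without any other single mouse. It was 0 without replicate 2 of DRF ZT20.

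At a matched clock time, fasted and fed mice can be set side by side, though each of these comparisons uses 1 of the 2 fasted groups again. In the dark, DRF ZT20 minus NRF ZT20 called 185 genes (1.14%), 88 higher (0.542%) and 97 lower (0.597%). In the light, NRF ZT8 minus DRF ZT8 called 28 (0.172%), 19 higher (0.117%) and 9 lower (0.0554%). In the dark the count was 42 without replicate 3 of DRF ZT20, 49, 70 and 113 without replicates 1, 2 and 3 of NRF ZT20, and 126 to 209 without any other single mouse. In the light it was 33 without replicate 1 and 16 without replicate 2 of DRF ZT8, and 1 to 6 without any other single mouse. Metallothionein 2, Mt2, which binds zinc and is induced by stress hormones, had 151, 178, 196 and 118 CPM in DRF ZT20 and 129, 144, 120 and 149 CPM in NRF ZT8. The fed mice had 65.5, 72.1, 59.8 and 68.3 CPM in NRF ZT20 and 82.4, 73.7, 79.4 and 74 CPM in DRF ZT8. All 8 fasted mice were above all 8 fed mice, by 1.24 in the dark (adjusted p = 4.46e-09) and 0.80 in the light (adjusted p = 0.000853), while dark and light did not differ past the threshold in the fast (0.22, adjusted p = 0.221). Icosl, a costimulatory ligand, was the other gene called between fasted and fed mice at both clock times with neither dark-light step called, at 6.31 to 7.64 CPM in the fasted mice and 4.67 to 5.81 CPM in the fed mice (0.32 in the dark and 0.36 in the light, adjusted p = 0.0322 and 0.047). Regimen and feeding state are the same contrast at 1 clock time and cannot be told apart there.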

How the data were processed

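RNA-seq libraries were made from the anterior hypothalamus of 56 female mice, 4 for each combination of regimen and sampling time. According to the study's methods, the authors filtered reads with SOAPnuke, aligned them with HISAT2 to GRCm38.p6, counted them with Bowtie2 and RSEM, normalized with TMM in edgeR and converted to TPM. The deposited values are a score, named TPM by the authors, that did not sum to a fixed total. Each equalled log2(1 + reads/constant), divided by gene length and scaled by library, with a median relative deviation of 3e-08. CPM was recovered from this relation for the 17564 genes in the table, of which 108 had no symbol and 76 no length. For 15033 genes the values came out as whole reads within a tolerance of 0.02. Annotated lengths that could not be checked were used for 268 tested genes, which were left out of the ranking of largest differences after the values had been seen, and 6 further genes were dropped.

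Genes with a deposited value of at least 1 in 80% of the 56 mice were tested (16235). Differences in log2(CPM + 1) were fitted with limma 3.58.1 (R 4.3.3, trended prior) over all groups, with Benjamini-Hochberg adjustment. The groups came from the labels, and no libraries held identical values. The spread between mice, not reads, sets the errors. Alternatives changed the mice in the fit, the scale, the pseudocount (0.1), the model (limma-voom), weights per mouse, the scaling, library trends with GC content, length and level, and the filter, and left out each mouse. The fitting was tested on simulated data. Motifs were searched in RefSeq promoter windows, which 12805 of the tested genes had. Named genes were the 12 largest called differences each way without overlap and with at least 1 CPM, all clock genes, up to 4 called members of each other list (up to 2 where none was called), members of marker lists with a call, and genes that differed between fasted and fed mice at both clock times with no step. Other genes were named after their values were seen. Results for some genes are not reported here. The members and lists were chosen with earlier results of these data known. Tables and figures were made with Python 3.11.15, pandas 2.3.3, numpy 2.4.6, scipy 1.17.1 and matplotlib 3.10.9.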

Additional observations from a re-analysis of the deposited data

Results flagged for a closer look

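Among the 106 named genes, 14 of the 212 groups of 4 mice held a mouse far from the other 3, and chance gives about 1 in 20 such groups. All 6 in DRF ZT20 were replicate 2. That mouse had 12.6 CPM of Cdr1 (others 5.66 to 6.27), 27.7 CPM of Nrarp (40.4 to 41), 78 CPM of Trh (144 to 162), 95 CPM of Dnajc3 (79.5 to 81.8), 113 CPM of Hnrnpm (103 to 105) and 191 CPM of Hnrnpdl (199 to 200). In NRF ZT8 there were 8, of which 7 were replicate 2. It had 32.8 CPM of Opalin (others 23.7 to 24.8), 34.6 CPM of Rorb (41 to 42.3), 11.7 CPM of Egr3 (3.4 to 4.1), 62 CPM of Dnajc3 (68.1 to 69.3), 319 CPM of Hspa5 (366 to 373), 78.8 CPM of Tra2a (86.5 to 87.4) and 167 CPM of Gja1 (178 to 180). The remaining one was replicate 3 of NRF ZT8, with 2.35 CPM of Plin4 (3.23 to 3.43).

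The fasted and the fed step differed by the test of the difference in Etnppl (0.642) and in Baalc (-0.291), both in log2(CPM + 1).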

How the results depend on the processing

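Of the 85 named genes called in the fasted step, 38 were called under every alternative, 47 were not under at least 1, and 0 changed direction. Without replicate 2 of DRF ZT20, 46 of the 85 were called and 85 had the same sign. The fasted count of 2102 became 1166 on the mice compared alone, 3255 with a weight per mouse, and 591 to 2882 without single mice. On log2(deposited value + 1), 64.9% of calls were higher, and on the 8 mice alone 60.7%, against 48.4%. The fed count of 629 became 2300 with weights, 1252 with library trends removed and 353 to 568 without single mice. The 2 differences between the steps became 0 on the 16 mice alone, which is also the fit on the mice compared, 0 on log2(deposited value + 1), 1 with a pseudocount of 0.1, 1 with limma-voom, 1 with median centring, 740 with weights, 17 with trends removed and 0 to 132 without single mice. The dark count of 185 became 6 on the mice compared, 890 with weights, 473 with trends removed and 42 to 209 without single mice. The light count of 28 became 1 on the mice compared, 8 on 16 mice, 4 on log2(deposited value + 1), 4 with centring, 1633 with weights, 51 with trends removed and 1 to 33 without single mice. The ratio of the median SD of DRF ZT20 to that of NRF ZT8 was 1.33, and 0.996 to 1.58 without single mice. The cause of these changes was not tested.

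List medians moved with trends removed to -0.00427 (ketone), 0.0216 (serine), -0.0439 (ribosomal), -0.071 (respiratory) and 0.0113 (splicing), with voom to 0.0717 (amino acid degradation), and reversed on log2(deposited value + 1) to 0.00228 (ketone). The thyroid median was -0.0623 to 0.0989 without single mice. Uncalled genes changed sign. On log2(deposited value + 1) the values were 0.0087 for Per1, 0.00432 for Csnk1d and 0.00208 for Fbxl21. With weights they were 0.0027 for Per1, -0.0102 for Nr1d2 and 0.00201 for Fbxl21. With trends removed they were 0.0569 for Per1, -0.0393 for Nr1d2, -0.13 for Rorb, -0.000696 for Hlf and 0.0122 for Csnk1d. Without single mice the ranges were -0.0511 to 0.0283 for Per1, -0.0166 to 0.0375 for Per2, -0.00549 to 0.0277 for Cry2, -0.00907 to 0.0436 for Nr1d2, -0.0702 to 0.0447 for Fbxl21, -0.0423 to 0.12 for Rorb, -0.064 to 0.774 for Egr3 and -0.0268 to 0.054 for Icosl.

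Leaving out replicate 2 of DRF ZT20 and removing library trends together, chosen after seeing the data, gave 806 calls. It gave list medians of 0.0302 (feeding peptides), -0.0333 (serine), -0.0291 (ribosomal), -0.0731 (respiratory) and -0.0082 (splicing). It gave 0.0521 for Per1, -0.0605 for Nr1d2, -0.0482 for Rora, -0.0132 for Rorb, -0.0436 for Hlf, 0.0276 for Csnk1d, 0.0137 for Fbxl21 and -0.0624 for Egr3.

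With the replicate number as a replicate block, 2117 genes were called in the fasted step and 4 in the difference between the steps. Deviations of same-numbered mice of DRF ZT20 and NRF ZT8 correlated at -0.022, 0.478, 0.0746 and 0.281. The highest correlations with another number were 0.393, 0.0175, 0.0388 and 0.225, so all but replicate 1 correlated best with their own. For NRF ZT20 and DRF ZT8 the values were 0.11, 0.157, 0.119 and 0.0441, against -0.0162, 0.112, 0.0882 and 0.0449. There, all but replicate 4 correlated best with their own number. The labels do not say what the numbers stand for, so they were not treated as pairs.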

Other observations

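Genes outside the lists, chosen after their values were seen, also stepped in both feeding states. P4ha1, a collagen prolyl hydroxylase, had 57.8, 62, 48.9 and 54.1 CPM in DRF ZT20 and 36, 35.2, 40.2 and 40.6 CPM in NRF ZT8. It was higher in every mouse in the dark (0.54, limma, adjusted p = 0.000201), and in the fed step (0.68). Htra1, a secreted protease, and the progestin receptor family gene Paqr8 were higher by 0.68 and 0.63 in the fast and by 0.47 and 0.40 in the fed step. The receptor Notch3 was lower by -0.41 and -0.44.

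Transcripts of astrocyte metabolism and transport, likewise chosen after seeing the values, went both ways. Glul, glutamine synthetase, had 1540, 1810, 1900 and 1590 CPM in DRF ZT20 and 1100, 1160, 1060 and 1140 CPM in NRF ZT8. All 4 mice in the dark were higher (0.61, adjusted p = 4.06e-07), and the fed step was 0.26. Sox9, a transcription factor of astrocytes, was higher by 0.47 with no overlap. The transporters Slc7a10 and Slc38a3 were lower by -0.46 and -0.44, again with no overlap. Astrocyte markers summed to 2690 to 3300 CPM against 2560 to 2740 CPM, and their part was not tested.

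Th, the rate-limiting enzyme of dopamine synthesis, had 40.1, 15.5, 32.6 and 37 CPM in DRF ZT20 and 47.4, 38, 52.7 and 51.2 CPM in NRF ZT8. It was lower in the dark (-0.65, adjusted p = 0.0087) with 1 mouse of each group overlapping, and the lowest value was replicate 2, the mouse with the fewest hypothalamic marker reads.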
